A study of Mus musculus with 11 samples.

Results

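Lncpint, the mouse gene of the p53-induced long non-coding RNA Pint, and 5 genes that lie near it on chromosome 6 were followed across 4 groups of fibroblasts. The neighbours are Mir29a, Klf14, Copg2, Mkln1 and Podxl. A gene was taken through the probe sets whose platform annotation names it as the only gene symbol, which gave 1 probe set for each gene. These are 6 of 19937 genes named in this way and 6 of 34760 probe sets on the arrays.

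All 11 arrays come from LSL mouse embryonic fibroblasts (MEFs) of C57BL/6 x 129/SvJ background, whose p53 gene is silenced by a removable stop cassette. In every group, controls included, p53 had been restored by infection with a Cre adenovirus (24 h, multiplicity of infection 5), oligonucleotides were then transfected, and 24 h later 150 nM doxorubicin, a DNA-damaging drug, was given for 12 h. The groups were control siRNA (3 arrays), p53 siRNA (3 arrays), control antisense oligonucleotide (control ASO, 2 arrays) and Pint ASO (3 arrays). Several ASOs against Pint were pooled. Affymetrix arrays were hybridised with cDNA labelled from 300 ng of total RNA each, and the values are log2 intensities.

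Long non-coding RNAs are transcripts without a protein product, and some act on chromatin near their own gene while others act elsewhere, so the levels of neighbouring genes are commonly examined when such an RNA is depleted. p53 is a transcription factor that DNA damage stabilises and that activates genes carrying its response elements. An ASO of the gapmer type pairs with its target RNA and directs RNase H to cut it, while an siRNA acts through the RNA interference machinery.

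On the reference assembly GRCm38.p6, Lncpint spans positions 31093563 to 31218474 of chromosome 6 on the minus strand and is annotated as a long non-coding RNA. Mir29a, a microRNA gene at 31062660 to 31062747, lies 30.8 kb from its nearer end, and Mir29b-1, a gene of the same family, lies 30.5 kb from it. Klf14 (30956021 to 30958990), which codes for a zinc-finger transcription factor, is 134.6 kb away on the same side, and Copg2 (30747554 to 30896815), which codes for a subunit of the COPI vesicle coat, is 196.7 kb away. On the other side lie Mkln1 (31398828 to 31516809), the gene of the ubiquitin ligase subunit muskelin, at 180.4 kb, and Podxl (31519493 to 31563937), the gene of the sialomucin podocalyxin, at 301.0 kb. The annotation places 14 genes within 250 kb of Lncpint. Besides Mir29a, Mir29b-1, Klf14, Copg2 and Mkln1 these are Tsga13, the pseudogene Gm13835, which overlaps Lncpint, and 7 long non-coding RNA genes, namely Gm38781, 4930412F09Rik, Gm40359, 2210408F21Rik, Gm38782, Mkln1os and LOC115490343. None of these 7, nor Gm13835, has a probe set of its own, so only 6 of the 14 could be measured.

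The sequences that tie the locus to p53 are the response elements that the study placed in it, given here with its mm9 coordinates and not converted to the other build. Capitals mark runs of 4 letters from C to G at the centre of a 10-letter p53 repeat or, in the second repeat of p53RE-2, 1 letter past its centre, and the strand was not stated.
p53RE-1: agaCAGGtgcggggctgccg
p53RE-2: gaaCATGcctggcaCTTGca
p53RE-3: agaCTGGtcatggCGTGtca
p53RE-1 is at chr6:31168219-31168238, p53RE-2 at chr6:31061150-31061169, 107069 bp from it, and p53RE-3 at chr6:31038792-31038811, 129427 bp from it. A p53 element is a pair of such repeats. The first repeat of p53RE-2 matched the p53 pattern at all 10 letters and the second at 4, while those of p53RE-1 and of p53RE-3 matched at 8 and 7 letters. The second repeat of p53RE-2 was scored without its shift of 1 letter, so its 4 can understate the match. RefSeq windows around the transcription start of 300 bp were at hand for Lncpint, Copg2 and Mkln1, and none of them held a complete p53 repeat on either strand, which 8.36% of all 32851 such windows did. Their best matches were 8 letters for Lncpint and 9 for Copg2 and Mkln1. The repeats of p53RE-1 and p53RE-3 are not complete either, so this search cannot show that a window lacks a p53 element. The paper places p53RE-1 at the 5′ end of all Pint transcripts it detected.

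The microRNAs next to Lncpint are shown because they share the seed, bases 2 to 8, here in capitals, through which they pair with target mRNAs. The sequences are those of RefSeq.
mmu-miR-29a-3p: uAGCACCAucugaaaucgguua
mmu-miR-29b-3p: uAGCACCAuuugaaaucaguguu
mmu-miR-29c-3p: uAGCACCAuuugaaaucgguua
Counted from the 5′ end of miR-29a, miR-29c differs by C10U, and miR-29b by C10U, G18A, U21G and A22U, all outside the seed. Of 1738 mature mouse microRNAs in the table, 4 entries carry this seed, namely miR-29a, miR-29c and miR-29b from each of its genes.

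The 12 fibroblast markers all had group means above 6 in every group, with medians of 11.43 to 12.37. Markers of epithelium, endothelium, macrophages and blood, and podocytes or mesothelium had medians of 6.38 to 7.89. Most of these were above 6 as well, so that value does not set the fibroblast markers apart. In every group it was passed by 7 of 8 epithelial, 7 of 8 endothelial and all 6 measured podocyte or mesothelium markers. Of the 6 measured macrophage and blood markers 3 or 4 passed it, and the highest mean was 10.46. The summed linear level of the fibroblast markers was lowest in Pint ASO (51242 to 53158), against 63419 to 63579 in control ASO, 66102 to 67414 in control siRNA and 75106 to 76042 in p53 siRNA, and its part in the results below was not tested. In bulk samples such as these, fewer cells of a type and less RNA per cell cannot be told apart. Array medians lay between 7.31 and 7.38, and arrays correlated at 0.993 to 0.995 within groups and at 0.983 to 0.993 between groups. The p53 mRNA itself was not analysed here. Whether replicate arrays came from separate cultures is not given in the labels, and the p-values then measure only the spread between arrays, which may be technical.

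**Figure D1:**
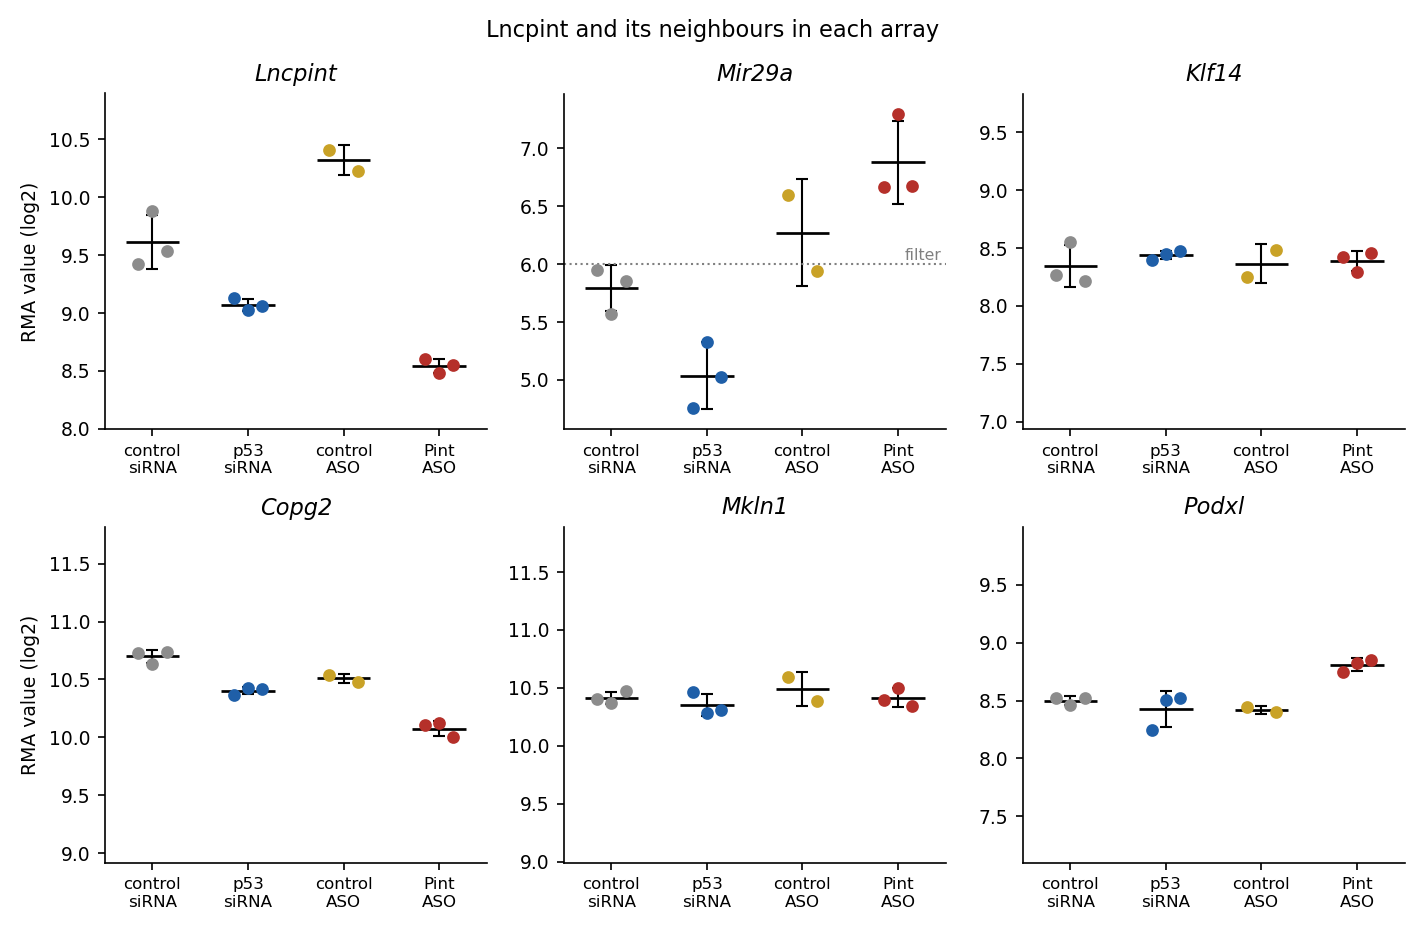
Log2 RMA value (vertical axis) of each gene in each of the 11 arrays (points) of the 4 groups, where lines are group means and bars their SD; every panel spans the same range of log2 units, and the dotted line for Mir29a is the filter at 6. Lncpint forms 4 separate bands from 8.48 to 10.41, Copg2 is lowest and Podxl highest in Pint ASO, Klf14 and Mkln1 stay within narrow bands, and Mir29a crosses the filter line between groups.

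Lncpint took a different level in each of the 4 groups. Its log2 value was 10.41 and 10.23 in the control ASO arrays and 9.43, 9.88 and 9.53 in control siRNA. It was 9.13, 9.02 and 9.06 in p53 siRNA and 8.60, 8.48 and 8.55 in Pint ASO. The 4 groups did not overlap in any of the 6 pairs, and in the order control ASO, control siRNA, p53 siRNA and Pint ASO each step down passed the test of the fit. Such separation was common, since the groups did not overlap for 40.4% of all probe sets tested between Pint ASO and control ASO, 35.7% between p53 siRNA and control siRNA, 32.6% between the controls, 46.5% between Pint ASO and control siRNA, 43.8% between p53 siRNA and control ASO and 48.1% between the knockdowns.

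With Pint ASO the targeted RNA fell by 1.78 against control ASO (SE 0.12, 95% interval -2.04 to -1.51, limma adjusted p = 2.94e-05), which left 29.2% of the control level. This was the seventh largest change among the 26038 probe sets tested and the third largest fall. With p53 siRNA, Lncpint fell by 0.54 against control siRNA (SE 0.11, 95% interval -0.78 to -0.30, limma adjusted p = 0.00673), to 68.7% of the control level. The fall with the ASO was the larger, with a difference between the effects of -1.23 (SE 0.16, limma adjusted p = 0.000643).

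The controls also differed, since Lncpint in control ASO exceeded its control siRNA level by 0.71 (SE 0.12, 95% interval 0.44 to 0.98, limma adjusted p = 0.0137). That call was lost without control siRNA replicate 3 (limma adjusted p = 0.0535) or without control ASO replicate 1 (0.106). The reference chosen for the knockdown therefore moves its size, with 29.2% of control ASO and 47.7% of control siRNA left in Pint ASO. Against the p53 siRNA arrays directly, the Pint ASO arrays were lower by 0.53 (SE 0.11, limma adjusted p = 0.00305), or 69.4% of their level. Two-sided exact permutation tests on single values could not pass a threshold of 0.05 with these group sizes, the smallest p being 0.1, and gave p = 0.1 between groups of 3 arrays and p = 0.2 against the 2 control ASO arrays.

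Of the 6 genes, 3 passed the test with Pint ASO, beside 19.1% of all probe sets tested. Lncpint and Copg2 were lower, as were 10.7% of all, and Podxl was higher, as were 8.49%. With p53 siRNA 2 passed, Lncpint and Copg2, beside 16.9%, and both were lower, as were 8.96%. Between the controls 1 passed, Lncpint, beside 4.02%. The difference between the knockdown effects passed for 3, Lncpint, Mir29a and Podxl, beside 18.5%. Mir29a entered the fit only through Pint ASO, the group where it is high, so its call only describes its levels. Across the arms, 35.3% of all probe sets passed for Pint ASO against control siRNA, 20.3% for p53 siRNA against control ASO and 39.0% for Pint ASO against p53 siRNA. By the study's own threshold, a log odds B over 3, the members called were Lncpint alone with Pint ASO, beside 3.12% of all, and none with p53 siRNA (3.92%), between the controls (0.595%) or for the difference of effects (3.61%). Across the arms it called 2 for Pint ASO against control siRNA (8.66%), 1 for p53 siRNA against control ASO (4.49%) and none for Pint ASO against p53 siRNA (11.7%).

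**Figure D2:**
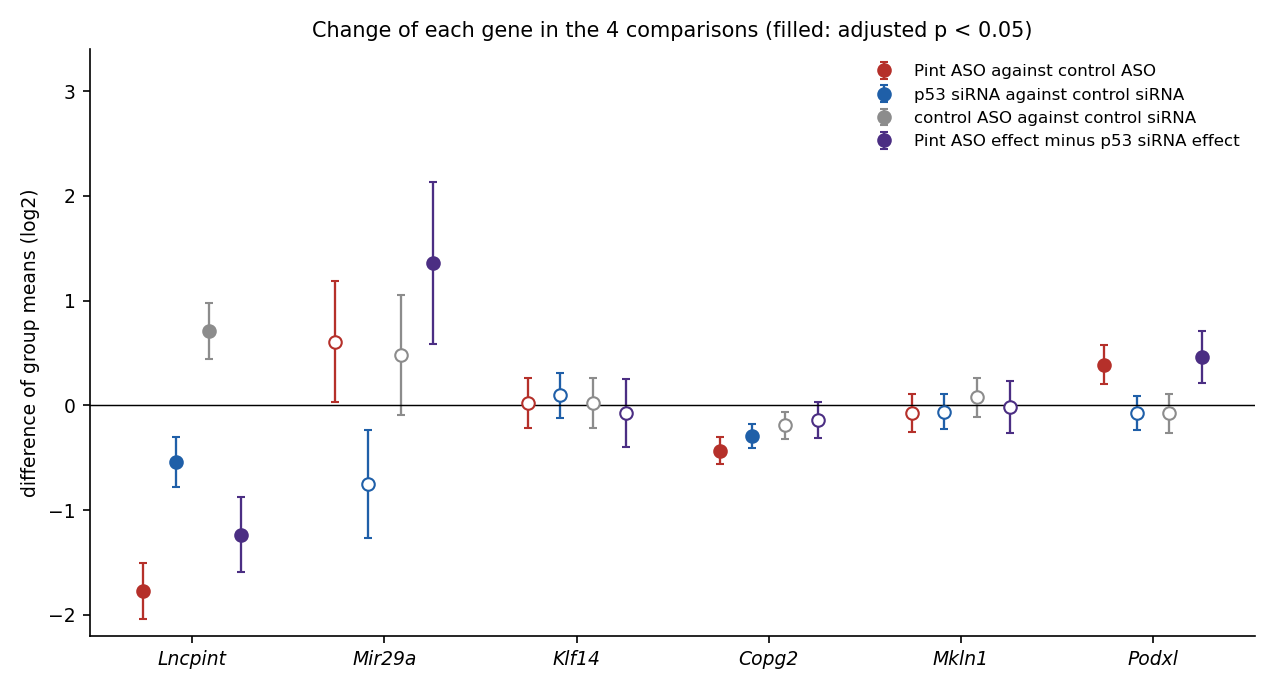
Difference of group means on the log2 scale (vertical axis) for each gene in the knockdown comparisons, between the controls and for the difference between the knockdown effects; bars are 95% intervals and filled points have an adjusted p under 0.05. Lncpint and Copg2 lie below 0 in both knockdowns, and the intervals of Klf14 and Mkln1 include 0 throughout. Mir29a lies above 0 with Pint ASO and below 0 with p53 siRNA, with open points in both. Podxl lies above 0 with Pint ASO, and its interval with p53 siRNA includes 0.

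Mir29a codes for the precursor of miR-29a, a microRNA best known for lowering collagen and other matrix mRNAs in fibroblasts. RNA was purified on columns that retain mainly longer RNAs, so the mature microRNA was not measured, and the probe set reads transcripts that span the short gene. Its log2 value was 5.95, 5.57 and 5.86 in control siRNA and 4.76, 5.33 and 5.02 in p53 siRNA. It was 6.60 and 5.94 in control ASO and 6.67, 7.29 and 6.68 in Pint ASO. Pint ASO arrays were highest and p53 siRNA arrays lowest, each without overlap with its own control, while the control groups overlapped. Of all probe sets, 40.4% and 35.7% did not overlap in these knockdown pairs.

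The level of Mir29a passed the filter of 6 only through the Pint ASO group, with all 3 arrays above it against 1 of 2 in control ASO and none in the siRNA groups. Neither knockdown passed the test against its own control. With Pint ASO the difference was 0.61 (SE 0.26, 95% interval 0.03 to 1.18, limma adjusted p = 0.141), and with p53 siRNA it was -0.75 (SE 0.23, 95% interval -1.27 to -0.24, limma adjusted p = 0.0521). The p53 siRNA value lay at the threshold, passing in 4 of the 11 fits that left out 1 array, namely p53 siRNA replicate 2 (0.0462), control ASO replicate 1 (0.0375), control ASO replicate 2 (0.0383) or Pint ASO replicate 2 (0.0321).

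The effects of the knockdowns on Mir29a did differ from each other, by 1.36 (SE 0.34, limma adjusted p = 0.0219), and Pint ASO arrays were 1.84 above p53 siRNA arrays (SE 0.23, limma adjusted p = 0.000143), with all p53 siRNA arrays below the filter value of 6. The first of these calls was lost without control siRNA replicate 1 (0.0516) or control ASO replicate 2 (0.0966). Because the gene entered the fit only through its high group, these differences are given as a description of its levels and not as support for a change in the list. In the order Pint ASO, control ASO, control siRNA and p53 siRNA no step between neighbours passed the test.

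Mir29b-1, whose gene lies beside Mir29a and carries the same seed, failed the filter and was read from a fit without it. Its log2 value was 4.35, 4.38 and 4.31 in control siRNA, 4.19, 4.22 and 4.02 in p53 siRNA, 5.06 and 4.40 in control ASO, and 5.92, 6.54 and 5.40 in Pint ASO. Only 1 array, the second of Pint ASO, was above 6, and it was also the highest array for Mir29a. In the fit without a filter the Pint ASO difference was 1.22 (SE 0.29, limma adjusted p = 0.0228) and the p53 siRNA difference was -0.20 (SE 0.26, limma adjusted p = 0.711). Over the 11 arrays the log2 values of these probe sets had a Pearson r of 0.895 and a Spearman rho of 0.936, and r was 0.723 after the group means were taken out. The other miR-29 genes, Mir29b-2 and Mir29c, have no probe set of their own.

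**Figure D3:**
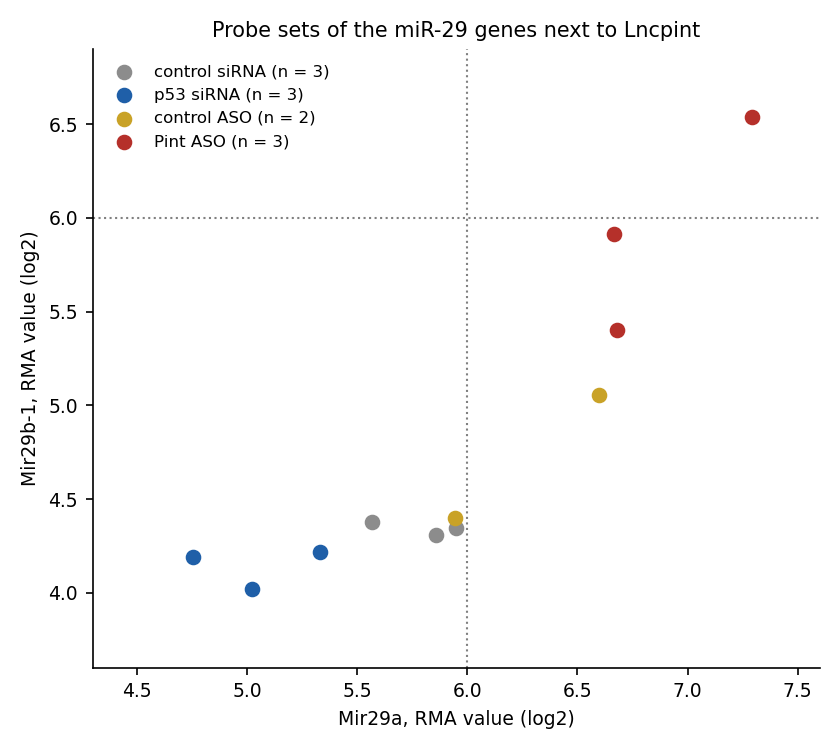
Log2 RMA value of Mir29a (horizontal axis) and Mir29b-1 (vertical axis) in each of the 11 arrays (points, coloured by group), with the filter value of 6 as dotted lines. The 3 Pint ASO arrays lie at the upper right, the p53 siRNA arrays at the lower left, and 1 array exceeds 6 on both axes.

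Known targets of miR-29 were described beside its genes. Of 21 tested, 6 fell and 2 rose with Pint ASO (median change -0.04), and 3 fell and 6 rose with p53 siRNA (median 0.10). The latter 9 calls became 5 without control siRNA replicate 2 or p53 siRNA replicate 2. Over all probe sets 19.1% and 16.9% passed, and the medians were 0.00 and 0.01. The largest changes with Pint ASO were in the fibrillar collagen genes Col3a1 (-0.95, SE 0.05), Col1a2 (-0.67, SE 0.07) and Col1a1 (-0.62, SE 0.05), and in Tet3 (0.58, SE 0.08), whose product oxidises methylated cytosine. With p53 siRNA the same collagen genes rose, Col3a1 by 0.67, Col1a2 by 0.41 and Col1a1 by 0.32, while Tet1, another of the TET genes, fell by 0.71. These 3 collagen genes are also on the list of fibroblast markers, of which 9 of 12 fell with Pint ASO (median -0.48) and 7 of 12 rose with p53 siRNA (median 0.31). Of the other 18 targets tested, 3 fell with Pint ASO, Tet1 (-0.41), Col5a1 (-0.40) and Sparc (-0.32), and 2 rose, Tet3 and the DNA methyltransferase gene Dnmt3a (0.30).

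Copg2 codes for a gamma subunit of the coatomer, the coat of vesicles that return cargo from the Golgi apparatus to the endoplasmic reticulum, and its 3 groups other than control siRNA were all lower than that control. Its log2 value was 10.73, 10.63 and 10.73 in control siRNA and 10.37, 10.43 and 10.42 in p53 siRNA. It was 10.54 and 10.48 in control ASO and 10.11, 10.12 and 10.00 in Pint ASO. No groups overlapped in any pair, and Pint ASO arrays were lowest. Depending on the pair, 32.6% to 48.1% of all probe sets did not overlap either.

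The Pint ASO difference was -0.43 (SE 0.06, 95% interval -0.56 to -0.31, limma adjusted p = 0.000821), which left 74.0% of control ASO. The p53 siRNA difference was -0.30 (SE 0.05, 95% interval -0.41 to -0.18, limma adjusted p = 0.00332), which left 81.5% of control siRNA. Both calls were kept in all 11 fits that left out 1 array. The effects of the knockdowns on Copg2 were not shown to differ (-0.14, SE 0.08, 95% interval -0.31 to 0.03, limma adjusted p = 0.280), nor were the controls (-0.19, SE 0.06, limma adjusted p = 0.109). Only the step from p53 siRNA down to Pint ASO passed among neighbours in the order of levels (0.33, limma adjusted p = 0.000610). The end of Copg2 overlaps that of Mest (30733506 to 30748466), and where the probes lie in relation to that overlap was not tested.

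The rest of the COPI coat shared the direction of Copg2 with Pint ASO. Of 9 subunit genes, Copg2 included, 6 fell and none rose (median -0.27), beside a median of 0.00 over all probe sets. Over all probe sets 10.7% fell and 8.49% rose with Pint ASO, 16.9% passed with p53 siRNA and 18.5% for the difference of effects. Copz2, a zeta subunit, fell by 0.63 (SE 0.07, limma adjusted p = 0.000258), Cope by 0.35 (SE 0.06), and Copg1, the paralog of Copg2, by 0.27 (SE 0.05), with Copz1 and Copb2 at the same size. With p53 siRNA only Copg2 fell, while Copz2 rose by 0.39 (SE 0.06) and the median was 0.04. The difference between the knockdown effects passed for 5 of the 9, among them Copz2 (-1.02, SE 0.09) and Copg1 (-0.39, SE 0.07), but not for Copg2. Copg1 and Copg2 code for alternative forms of one subunit. With p53 siRNA Copg1 was at 0.12 (limma adjusted p = 0.158), and its difference from Copg2 was not tested. Copz2 also differed between the controls (-0.33, SE 0.07, limma adjusted p = 0.0268), where the COPI coat had no call without control siRNA replicate 1 or 3 or control ASO replicate 1.

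Of 15 regulators and cargo receptors of COPI that were tested, 7 fell with Pint ASO and none rose (median -0.14), led by the KDEL receptor gene Kdelr3 (-0.51, SE 0.06) and the p24 cargo receptor genes Tmed10 (-0.36, SE 0.05) and Tmed3 (-0.34, SE 0.07). Without control ASO replicate 2 the count was 3. Over all probe sets 10.7% fell with Pint ASO and 16.9% passed with p53 siRNA. With p53 siRNA the small GTPase gene Arf5 rose by 0.16 (SE 0.05) and no other passed, and none did without any single one of the 6 siRNA arrays or without Pint ASO replicate 2 or 3. The COPII coat, which carries cargo the opposite way, had 3 of 14 genes lower with Pint ASO, Sec24d (-0.33), Sec23a (-0.31) and Sec31a (-0.20), with a median of -0.11. With p53 siRNA Sec24a fell by 0.28, while Sec16b (0.24) and Sec24d (0.19) rose. Without replicate 2 or 3 of either siRNA group 1 of these 3 calls was left.

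Klf14 codes for a Krüppel-like transcription factor known from adipose tissue, and its level did not pass the test in any of the 7 contrasts. Its log2 value ran from 8.22 to 8.55 in control siRNA, from 8.40 to 8.47 in p53 siRNA, from 8.25 to 8.48 in control ASO and from 8.29 to 8.45 in Pint ASO. All 4 groups overlapped. The Pint ASO difference was 0.02 (SE 0.11, 95% interval -0.22 to 0.26, limma adjusted p = 0.918) and the p53 siRNA difference was 0.09 (SE 0.10, 95% interval -0.12 to 0.31, limma adjusted p = 0.581), so these arrays leave room for changes up to the ends of those intervals.

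Of 16 KLF genes tested, Klf14 included, 7 rose with Pint ASO, none fell and 9 did not pass (median 0.23). Over all probe sets 8.49% rose and 10.7% fell with Pint ASO, and 16.9% passed with p53 siRNA. Klf6 rose by 0.69 (SE 0.06, limma adjusted p = 0.000123), Klf5 by 0.68 (SE 0.05, limma adjusted p = 5.33e-05), Klf10 by 0.43 (SE 0.07) and Klf15 by 0.42 (SE 0.07). With p53 siRNA 4 rose and 1 fell (median 0.05), with Klf12 at 0.44 (SE 0.07) and Klf5 at -0.34 (SE 0.05). These 5 calls became 2 without control siRNA replicate 1 or 2 or p53 siRNA replicate 3, and 3 without control siRNA replicate 3 or p53 siRNA replicate 2. Between the controls Klf5 was 0.50 higher in the ASO arrays (SE 0.05, limma adjusted p = 0.00159).

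Mkln1 codes for muskelin, a subunit of the CTLH ubiquitin ligase, and no contrast called it either. Its log2 value ran from 10.37 to 10.47 in control siRNA, from 10.29 to 10.46 in p53 siRNA, from 10.39 to 10.59 in control ASO and from 10.34 to 10.50 in Pint ASO. All 4 groups overlapped. The Pint ASO difference was -0.07 (SE 0.08, 95% interval -0.26 to 0.11, limma adjusted p = 0.609) and the p53 siRNA difference was -0.06 (SE 0.07, 95% interval -0.23 to 0.10, limma adjusted p = 0.646). Of the 11 genes of the ligase, Ranbp9, its scaffold, rose with Pint ASO by 0.27 (SE 0.05), and Ypel5 fell with p53 siRNA by 0.24 (SE 0.05), with medians of 0.04 and -0.06. Over all probe sets 19.1% and 16.9% passed. The p53 siRNA call was lost without control siRNA replicate 1 or 3 or p53 siRNA replicate 2.

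Podxl codes for podocalyxin, a sialomucin of the CD34 family that coats podocytes and endothelium, and it rose with Pint ASO alone. Its log2 value was 8.45 and 8.40 in control ASO and 8.75, 8.83 and 8.85 in Pint ASO. It was 8.52, 8.46 and 8.52 in control siRNA and 8.24, 8.51 and 8.52 in p53 siRNA. The 3 Pint ASO arrays lay above all other 8, and the remaining groups lay together, with the first p53 siRNA array lowest of all. Between Pint ASO and each other group, 40.4% to 48.1% of all probe sets did not overlap.

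The Pint ASO difference for Podxl was 0.39 (SE 0.08, 95% interval 0.20 to 0.57, limma adjusted p = 0.00977), or 131% of control ASO, and the p53 siRNA difference was -0.08 (SE 0.07, 95% interval -0.24 to 0.09, limma adjusted p = 0.566). The difference between these effects was 0.46 (SE 0.11, limma adjusted p = 0.0166). Without control ASO replicate 2 the first call was lost (0.0621), and so was that on the difference (0.0644). Against control siRNA, Pint ASO arrays were 0.31 higher (SE 0.07, limma adjusted p = 0.00845), a call kept in all 11 fits with 1 array left out. That contrast also sets an ASO against an siRNA, and 35.3% of all probe sets passed in it. The summed linear level of the podocyte and mesothelium markers was 1010 to 1074 in Pint ASO and 1210 to 1282 in control ASO. Endothelial markers summed to 1057 to 1103 in Pint ASO and to 885 to 957 in control ASO, higher without overlap. Of the 7 endothelial markers tested, however, 1 passed as higher and 1 as lower. The median of the 8 endothelial group means was 6.85 in Pint ASO and 6.81 in control ASO. The part of either cell type in the Podxl value was not tested.

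Among 8 genes of the CD34 family and of podocalyxin's partners, Podxl was the only one that rose with Pint ASO, and 2 fell. Of all probe sets, 8.49% rose and 10.7% fell with Pint ASO, and 16.9% passed with p53 siRNA. Cd34, the family's founding member, fell by 0.61 (SE 0.05, limma adjusted p = 5.06e-05), and the scaffold gene Slc9a3r1 fell by 0.39 (SE 0.06). Cd34 also fell with p53 siRNA (-0.39, SE 0.04) and between the controls was higher in the ASO arrays (0.27, SE 0.05). With p53 siRNA Rdx, which codes for radixin, rose by 0.21 (SE 0.06, limma adjusted p = 0.0383). The count of 2 with p53 siRNA became 1 without any single one of the 6 siRNA arrays or Pint ASO replicate 1, and that between the controls became 0 without control siRNA replicate 3 or either control ASO array.

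**Figure D4:**
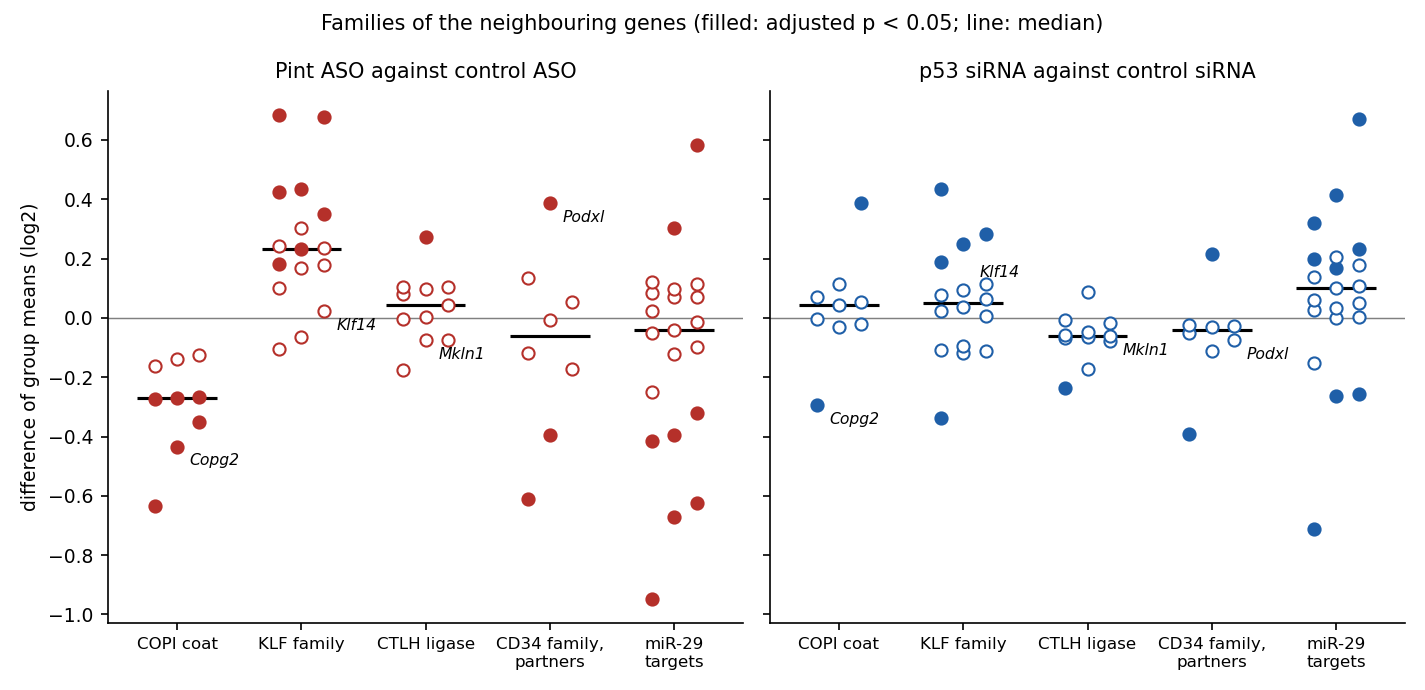
Difference of group means on the log2 scale (vertical axis) for the genes of each family (points) with Pint ASO (left) and p53 siRNA (right), with filled points at an adjusted p under 0.05, medians as lines and the gene near Lncpint named. With Pint ASO, Copg2 lies among 6 lowered COPI genes, Klf14 lies near 0 beside 7 raised KLF genes, and Podxl lies above Cd34 and its other relatives.

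The wider surroundings of Lncpint were read in the same way. Within 1 Mb of either end the annotation lists 48 genes. A probe set of their own represents 24 of them, and 17 probe sets passed the filter. With Pint ASO 3 of these were higher and 3 lower (median -0.02), with p53 siRNA 1 and 1 (median 0.01), and between the controls 1 was higher. Over all probe sets 19.1%, 16.9% and 4.02% passed in these comparisons. Lower with Pint ASO were Copg2 and both probe sets of Ube2h, a ubiquitin-conjugating enzyme gene 789.0 kb away (-0.54, SE 0.14, and -0.44, SE 0.10), and both Ube2h calls were lost without control ASO replicate 1. Higher were Podxl, Plxna4, a semaphorin co-receptor gene 926.1 kb away (0.48, SE 0.08, limma adjusted p = 0.00245), and Nrf1, a transcription factor gene 940.1 kb away (0.26, SE 0.07, limma adjusted p = 0.0357). The Plxna4 call was kept in all 11 fits with 1 array left out, and that of Nrf1 in 2 of them.

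Mest, the imprinted gene whose end overlaps Copg2, was called with p53 siRNA and between the controls. Its mean log2 value was 8.80 ± 0.11 in control siRNA, 9.35 ± 0.05 in p53 siRNA and 9.09 ± 0.09 in Pint ASO (SD, n = 3 each), and 9.20 ± 0.13 in control ASO (SD, n = 2). It rose with p53 siRNA by 0.55 (SE 0.07, limma adjusted p = 0.000679), where Copg2 fell, and did not pass with Pint ASO (-0.11, SE 0.08, limma adjusted p = 0.447), where Copg2 also fell. Between the controls it was 0.40 higher in control ASO (SE 0.08, limma adjusted p = 0.0298), a call lost without control siRNA replicate 1 or 2, p53 siRNA replicate 3 or control ASO replicate 1. The other tested genes in this window, Tmem209, Zc3hc1, Klhdc10, Cpa1, Cpa4, Cep41 and 1700012A03Rik, passed in none of the knockdown comparisons.

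**Figure D5:**
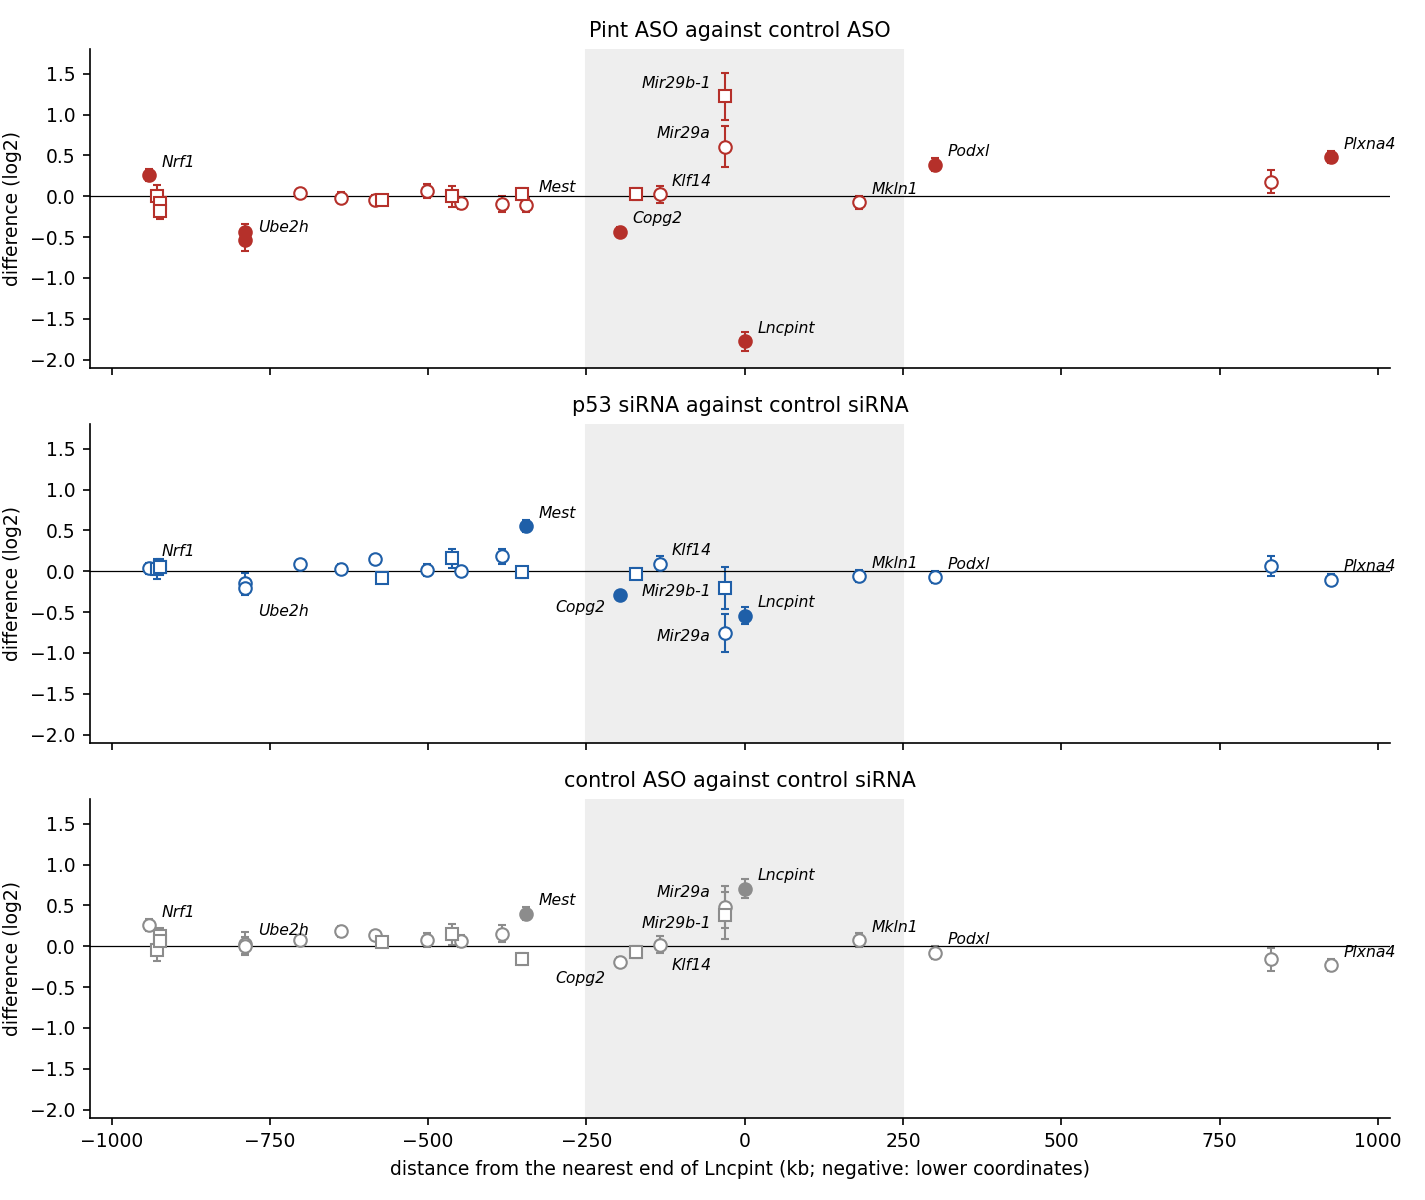
Log2 difference with its standard error (vertical axis) against distance from the nearer end of Lncpint in kb (horizontal axis) for all genes with a probe set of their own within 1 Mb, in 3 comparisons; filled circles are called, open circles are not, squares failed the filter and are drawn open from the fit without it, and the grey band marks 250 kb. With Pint ASO, Copg2 is the one filled point beside Lncpint inside the band, and the other called genes lie 301.0 kb or more away.

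Other genes of the kinds met here were compared with Lncpint, beside 19.1% of all probe sets that passed with Pint ASO and 16.9% with p53 siRNA. Of 15 long non-coding RNA genes tested, Lncpint included, 3 fell and 4 rose with Pint ASO (median 0.02), among them the imprinted RNA gene Meg3 (-0.76, SE 0.07), Dnm3os (-0.66, SE 0.08) and the snoRNA host gene Snhg5 (0.55, SE 0.06). With p53 siRNA 3 fell, Lncpint, Pvt1 (-0.41, SE 0.06), which lies beside Myc, and Airn (-0.24, SE 0.07), and none rose. Of 12 imprinted genes of chromosome 6 that were tested, Copg2 and Klf14 included, 3 fell with Pint ASO, Pon3 (-0.55), Sgce (-0.44) and Copg2. With p53 siRNA 3 fell and 2 rose, with Mest and Peg10 at 0.55 each and Herc3 at -0.39.

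Patterns most like those of each gene were sought among 17516 probe sets with 1 gene symbol, over the 11 arrays, which share their groups. Genes picked in this way tend to share the direction of the gene they resemble, so that direction is no separate result. Closest to Lncpint were Sync (Pearson r 0.942, Spearman rho 0.936), Tap1 (0.931 and 0.936), Extl3 (0.930 and 0.864), Psenen (0.927 and 0.882) and Lrch3 (0.923 and 0.891). Sync and Tap1 fell with Pint ASO by 0.44 and 0.45 on the log2 scale. With the group means taken out, r between Lncpint and these 5 ran from -0.525 to 0.514. Closest to Copg2 were Car5b (r 0.994), Nxn (0.992), Gpc1 (0.987), Castor1 (0.986) and Pros1 (0.986), and Nxn and Castor1 ordered the 11 arrays exactly as Copg2 did. All 5 fell in both knockdowns, from 0.38 to 0.85 with Pint ASO and from 0.22 to 0.51 with p53 siRNA.

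Closest to Mir29a were Ndst2 (r 0.994), Fgd6 (0.988), Bicral (0.987), Pdss2 (0.986) and Bahd1 (0.985), and with the group means taken out r was 0.884 to 0.965. Their selection over the same arrays favours a high value there too. Their own changes were small, from 0.08 to 0.21 with Pint ASO, where none passed, and with p53 siRNA Fgd6 (-0.26, limma adjusted p = 0.0281) and Bicral (-0.21, limma adjusted p = 0.0469) fell. Closest to Podxl were Wdfy1 (0.968), Rab3ip (0.967), Rbm7 (0.966), Lamtor3 (0.950) and Aff1 (0.946). All of them rose with Pint ASO, by 0.21 to 0.42, a direction that their selection favours. For Klf14, led by Klhl35 (0.933), Mir540 (0.926), Ntm (0.912), Alppl2 (0.912) and Fam178b (0.906), and for Mkln1, led by Taco1 (0.887), Kif1b (0.884), Pggt1b (0.882), Lrp12 (0.874) and E030011O05Rik (0.873), none of the leading genes passed in either knockdown. Between the members themselves r was 0.731 for Lncpint and Copg2, -0.681 for Lncpint and Podxl, and -0.209 for Lncpint and Mir29a. With the group means taken out these were -0.512, -0.341 and -0.325, so that for Lncpint and Copg2 the sign turned.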

How the data were processed

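RNA of p53-restored, doxorubicin-treated MEFs was measured on 11 arrays in 4 groups taken from the labels. The authors deposited log2 intensities, normalized by RMA, whose version is not given in the sources used here; the main and supplementary methods name different mouse array models. Depth does not apply to arrays, and their number limits the precision. Columns of no sample numbered 0. Probe sets were named through the platform annotation, 21640 with 1 symbol and 1321 with several, from which no gene was named.

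Only probe sets with log2 values above 6 (64 linear) on 2 or more arrays of some group were kept for testing (26038). One limma model (version 3.58.1, R 4.3.3; lmFit on group means, eBayes without trend) held the 4 groups. A call needed an adjusted p under 0.05 (Benjamini-Hochberg, all 26038). The study's B over 3, other filters, scalings and priors, replicate blocks, each arm alone and each array left out were alternatives. The fit was tested on simulated data. Python 3.11.15, scipy 1.17.1 and pandas 2.3.3 were used for the rest. All members are named, with up to 4 called genes per list and comparison with the largest change, genes within 250 kb by name, those with a probe set within 1 Mb, and the 5 closest patterns; further called genes were named after their values were seen. Members and lists were chosen with earlier results of these data known. A gene with several probe sets was represented in lists by that with the highest mean. Deviations of same-numbered siRNA arrays from their group means correlated at -0.284, -0.181 and -0.0371. For ASO arrays the 2 pairs gave -0.0463 and -0.420 by title numbers but 0.420 and 0.375 by description numbers, so numbers were not treated as pairs. Distances and gene positions are those of GRCm38.p6.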

Additional observations from a re-analysis of the deposited data

Results flagged for a closer look

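For 3 genes the difference between the knockdown effects passed its own test, as it did for 18.5% of all probe sets. For Lncpint, Pint ASO minus p53 siRNA gave a difference of effects of -1.23 (limma adjusted p = 0.000643), lower in all Pint ASO and p53 siRNA arrays than in their own controls. For Mir29a it was 1.36 (limma adjusted p = 0.0219), with the gene higher in Pint ASO and lower in p53 siRNA than in every array of its own control. Mir29a passed the filter only through Pint ASO, the group where it is high, so its value is a description and no support for a change. For Podxl it was 0.46 (limma adjusted p = 0.0166), with the gene higher in all 3 Pint ASO arrays than in control ASO. Without control ASO replicate 2 the Mir29a and Podxl calls were lost (limma adjusted p = 0.0966 and 0.0644). Separation from the own control was common, at 40.4% of all probe sets for Pint ASO and 35.7% for p53 siRNA.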

How the results depend on the processing

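Lncpint kept its Pint ASO call in every alternative run, from -1.87 to -1.68 with 1 array left out, and its p53 siRNA call in all but the B threshold. With B over 3, the study's threshold, the members called were 1 with Pint ASO (Lncpint), 0 with p53 siRNA, 0 between the controls and 0 for the difference of effects, and 2, 1 and 0 for Pint ASO against control siRNA, p53 siRNA against control ASO and Pint ASO against p53 siRNA. At the adjusted p threshold and with 1 array left out, the members called were 2 to 3, 2 to 3, 0 to 1, 1 to 3, 4 to 4, 1 to 2 and 4 to 4 in the same order, and the count of 1 for the difference of effects came without control ASO replicate 2. With quantile normalization applied again the controls gave 2, with Copg2 added (adjusted p = 0.0492). The filter in every group dropped Mir29a and left 1 for p53 siRNA against control ASO. Mir29a passed with p53 siRNA under an intensity trend (0.0427), with its arm fitted alone (0.0308) and with unnamed probe sets of low number left out (0.0330), and without control ASO replicate 1 it no longer passed for p53 siRNA against control ASO (0.0821). With the ASO arm fitted alone or a block within it, list counts with Pint ASO went from 6 to as few as 2 for the COPI coat, from 7 to 1 for its regulators and cargo receptors, from 3 to 0 for COPII and from 7 to 3 for the KLF family. Calls over all 26038 probe sets also went down, from 4985 to 1890 with the arm alone. With the block within it they were 1311 by titles and 2604 by descriptions. The KLF family had 11 with unnamed probe sets of low number left out, where 5207 of 21536 probe sets passed.

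The replicate block by the number in the titles gave 3 members called with Pint ASO, as did that by the descriptions, and 0 between the controls by titles, where Lncpint was at 0.0665. With it the Mir29a difference of effects was lost (0.0577). A block within each arm, chosen after seeing the data, gave by titles 1 with Pint ASO, 0 between the controls, 1 for the difference of effects and 1 for p53 siRNA against control ASO, and 0 between the controls by descriptions. Copg2 was lost there with Pint ASO by titles (-0.40, adjusted p = 0.0501), and Podxl by titles (0.117) and descriptions (0.0566). Whether these shared numbers mark pairs was not settled. Over all probe sets the plain block moved the calls between the controls from 1046 to 371 by titles and 465 by descriptions. The block within each arm moved them to 9 and 54, and the Pint ASO calls from 4985 to 1311 and 2604. By titles it also moved the calls for the difference of effects from 4830 to 1927. Those for p53 siRNA against control ASO went from 5285 to 2276.

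Values near 0 changed sign without being called. With 1 array left out, Klf14 ran from -0.096 to 0.14 with Pint ASO, from -0.098 to 0.14 between the controls, from -0.19 to 0.047 for the difference of effects, from -0.019 to 0.15 for Pint ASO against control siRNA and from -0.045 to 0.19 for p53 siRNA against control ASO. Mkln1 ran from -0.18 to 0.027 with Pint ASO, -0.025 to 0.18 between the controls, -0.12 to 0.088 for the difference of effects and -0.042 to 0.037 against control siRNA, and Podxl from -0.12 to 0.015 with p53 siRNA and -0.046 to 0.092 for p53 siRNA against control ASO. The within-arm block by titles turned Klf14 with Pint ASO to -0.010 and Mkln1 for the difference of effects to 0.021, and Podxl for p53 siRNA against control ASO was -0.020 under it and -0.025 under the plain block by titles. The cause was not tested.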
